A study of Mus musculus with 21 samples.

Results

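A group of genes that do not encode matrix proteins, and whose RNA changed strongly when TGF-β1 was given to mouse breast cancer cells, was followed across 21 RNA-seq libraries. They are 10 of the 55573 genes in the table, and all 10 were among the 15432 genes that passed the filter on low counts. Ctsw passed that filter only through its TGF-β1 libraries. Ctsw, Tnnt2, Rap1gap2, Acsbg1 and Inava were selected on a higher level with TGF-β1 than with vehicle, and Ptgds, Zfp428, Tubb3, Mcam and Cnst on a lower one. Their values in that contrast, and in any contrast that uses the same libraries, are therefore a description and carry no test; the 6 comparisons among the other 5 groups are tested.

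All libraries came from E0771 mouse breast cancer cells that carry GFP, or from lines derived from them, grown in RPMI medium with calf serum, with 3 libraries in each of 7 groups. The TGF-β1 and vehicle groups overexpressed ZBTB18 and also carried a doxycycline-inducible TGFBR2. Both were given doxycycline, at 1 mg/mL according to the label, the TGF-β1 group together with TGF-β1 at 2 ng/mL and the vehicle group with vehicle. The ZBTB18OE group overexpressed ZBTB18 without the receptor construct, and the EV group carried an empty vector. M11 (M11GFP) and M12 (M12GFP) were lines from spontaneous lung metastases, and the parental group was untreated E0771GFP. Each group stands for 1 line as far as the labels say, so clonal differences between lines and the named manipulation cannot be told apart. The labels name no separate cultures, batch or length of treatment, and p-values measure only the spread between these libraries, which may be technical.

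TGF-β1 binds the receptor subunit TGFBR2, which recruits and phosphorylates TGFBR1; the active complex phosphorylates SMAD2 and SMAD3, which enter the nucleus with SMAD4 and change transcription together with other factors such as AP-1. In breast cancer cells the pathway is best known for matrix production, epithelial-mesenchymal transition and a slowing of the cell cycle. ZBTB18 is a zinc finger protein that represses transcription and binds a site containing an E-box.

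Libraries held 24208569 to 90518872 counts. Tgfbr2 stood at 604 ± 17.4 CPM in TGF-β1 libraries and 588 ± 32.7 in vehicle libraries, against 1.74 ± 0.253 in ZBTB18OE and 26.6 ± 0.439 in EV libraries (SD, n = 3; CPM are library-scaled counts after TMM). Zbtb18 stood at 95.2, 82.9 and 113 CPM in the TGF-β1, vehicle and ZBTB18OE groups, against 25.1 in EV and 29.5 in parental cells. Parental replicate 1 stood apart, with 14% of its counts on Gm42418, a gene that took no more than 0.0918% elsewhere. The share of mitochondrial transcripts was 0.525 to 0.734% in receptor-carrying libraries, 0.861 to 1.09% in ZBTB18OE and EV, and 1.8 to 3.42% in M11, M12 and parental libraries.

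TGF-β1 against vehicle gave the contrast from which the genes were taken. Of the 15432 genes tested, 1.91% were called in it (295 genes; 194 or 1.26% higher and 101 or 0.654% lower; edgeR, adjusted p under 0.05), and nothing is read from the members' own place among them. A narrower set held called genes with an official name (no Gm, Rik or accession name). They also had at least a 2-fold change, at least 5 CPM in the higher group and no overlap between groups. This set numbered 20 higher and 7 lower, of which 5 and 5 are described here. The smallest rise among the members was that of Inava (log2 fold change 1.33), with Skil just below it at 1.30 and Notch4 just above at 1.42 among the genes not taken. The smallest fall was that of Cnst (-1.10), with Adhfe1 at -1.05 on one side and Itgb7 at -1.17 on the other.

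**Figure D1:**
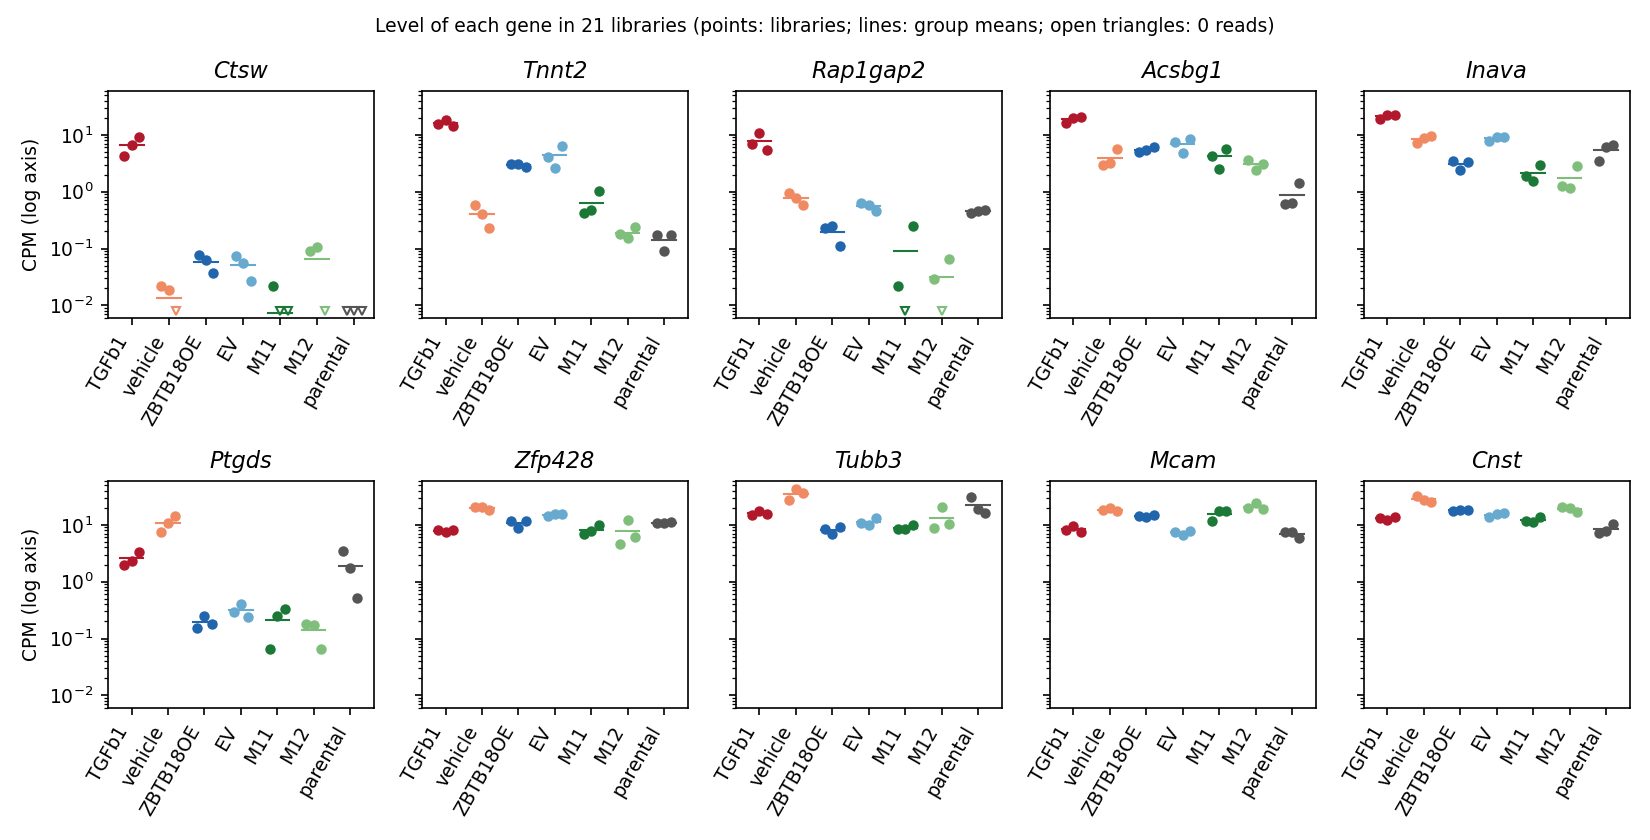
Level of the 10 genes in each of the 21 libraries, in CPM on a log axis, by group; points are libraries, lines are group means and open triangles mark libraries with 0 reads. Ctsw, Tnnt2, Rap1gap2, Acsbg1 and Inava (upper row) are highest in TGF-β1 libraries; Ptgds, Zfp428, Tubb3 and Cnst (lower row) are highest in vehicle libraries and Mcam in M12.

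Ctsw encodes cathepsin W, a papain-like cysteine protease known from cytotoxic T cells and natural killer cells (ENSMUSG00000024910.5, chromosome 19, 5465043 to 5468507, minus strand, mm10). It had 4.28, 6.53 and 9.28 CPM in TGF-β1 libraries, against 0.0222, 0.0186 and 0 CPM in vehicle libraries. Every TGF-β1 library lay far above every vehicle library, although the TGF-β1 libraries spread by more than 2-fold among themselves. In reads the groups held 1164 and 3, a ratio per scaled library of 402 with a 95% counting interval of 137 to 1950, which leaves out variation between replicates. In the other 5 groups it was at or near the limit of detection: 9 reads in ZBTB18OE, 9 in EV, 1 in M11, 8 in M12 and 0 in parental libraries. Fibp overlaps Ctsw on the opposite strand, and whether the counting used strand is not given in the sources used here; Fibp had 51.2 ± 3.26 CPM in TGF-β1 and 49.5 ± 4.85 in vehicle libraries.

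Tnnt2 encodes cardiac troponin T, which ties the troponin complex to tropomyosin on thin filaments (ENSMUSG00000026414.13, chromosome 1, 135836354 to 135852260, plus strand). It had 15.2, 17.9 and 14.5 CPM in TGF-β1 libraries, against 0.576, 0.410 and 0.231 CPM in vehicle libraries, with no overlap. The fitted log2 fold change was 5.20. The vehicle level was itself below that of the other ZBTB18-overexpressing line: ZBTB18OE libraries had 3.09, 3.05 and 2.7 CPM (log2 fold change -2.78, vehicle minus ZBTB18OE). EV libraries had 4.08, 2.57 and 6.34 CPM, so the order of group means was TGF-β1, EV, ZBTB18OE, M11, vehicle, M12 and parental, and in that order EV overlapped ZBTB18OE and each group from M11 onward overlapped the next.

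Rap1gap2 encodes a GTPase-activating protein that switches off Rap1, a small GTPase of integrin activation and cell adhesion (ENSMUSG00000038807.19, chromosome 11, 74383356 to 74610915, minus strand). It had 6.82, 10.7 and 5.49 CPM in TGF-β1 libraries, against 0.954, 0.764 and 0.576 CPM in vehicle libraries. The log2 fold change was 3.29, and no TGF-β1 library reached down to the vehicle range. In the 5 remaining groups it stayed at or below 0.627 CPM in every library. Per length it was the lowest of the 10 genes in TGF-β1 libraries, at 1.87 ± 0.673 TPM, where Tnnt2 was the highest at 25.3 ± 2.77 TPM.

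Acsbg1 encodes an acyl-CoA synthetase of the bubblegum family, which activates long-chain and very-long-chain fatty acids and is best known from brain, adrenal gland and testis (ENSMUSG00000032281.11, chromosome 9, 54604877 to 54661870, minus strand). It had 16.2, 19.8 and 20.8 CPM in TGF-β1 libraries, against 2.98, 3.21 and 5.67 CPM in vehicle libraries, a log2 fold change of 2.28. The vehicle libraries overlapped the range of ZBTB18OE, EV, M11 and M12, whose group means ran from 3.03 to 6.96 CPM. The parental libraries lay below all of these, at 0.595, 0.638 and 1.39 CPM.

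Inava encodes a partner of cytohesins, the exchange factors of ARF GTPases, and is known for epithelial junction stability and innate immune signalling (ENSMUSG00000041605.16, chromosome 1, 136213531 to 136234264, minus strand). It had 19.3, 22.3 and 22.7 CPM in TGF-β1 libraries, against 7.30, 8.74 and 9.45 CPM in vehicle libraries, without overlap (log2 fold change 1.33). The vehicle libraries averaged 8.50 ± 1.10 CPM and overlapped the EV libraries at 8.62 ± 0.778 CPM, and both lay above ZBTB18OE at 3.05 ± 0.605 CPM.

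Ptgds encodes lipocalin-type prostaglandin D synthase, which makes prostaglandin D2 and also carries lipophilic molecules (ENSMUSG00000015090.13, chromosome 2, 25466709 to 25470046, minus strand). It had 1.98, 2.34 and 3.38 CPM in TGF-β1 libraries, against 7.46, 10.6 and 14.3 CPM in vehicle libraries, a log2 fold change of -2.07 with no overlap. The TGF-β1 level was still far above the line without the receptor construct: ZBTB18OE libraries had 0.155, 0.249 and 0.182 CPM. Set against ZBTB18OE, the log2 difference was 3.70 for TGF-β1 libraries and 5.78 for vehicle libraries. The vehicle libraries held the highest Ptgds levels of all groups, and the TGF-β1 libraries overlapped the parental ones.

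Zfp428 encodes a zinc finger protein whose function is little described (ENSMUSG00000064264.14, chromosome 7, 24507006 to 24515682, plus strand). It had 8.02, 7.56 and 8.0 CPM in TGF-β1 libraries, against 20.8, 20.8 and 18.4 CPM in vehicle libraries, with replicates close together on both sides (log2 fold change -1.35). The vehicle libraries were the highest of the series; EV came next at 15.0 ± 0.516 CPM, and the TGF-β1 mean lay within the range of the M12 libraries (4.52, 12.4 and 6.04 CPM).

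Tubb3 encodes class III β-tubulin, a neuronal tubulin also made by many carcinomas (ENSMUSG00000062380.4, chromosome 8, 123411424 to 123422015, plus strand). It had 14.7, 17.5 and 15.6 CPM in TGF-β1 libraries, against 27.1, 42.1 and 36.3 CPM in vehicle libraries (log2 fold change -1.14, no overlap). The TGF-β1 level lay above the ZBTB18OE level of 8.07 ± 1.16 CPM and overlapped the parental range of 15.9 to 30.7 CPM. Gm20388 overlaps Tubb3 on the same strand, so the division of reads between them rests on the authors' estimate; it had 115 ± 13.9 CPM in TGF-β1 and 111 ± 9.27 in vehicle libraries.

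Mcam encodes CD146, an adhesion molecule of the immunoglobulin superfamily found on endothelium, pericytes and melanoma cells (ENSMUSG00000032135.15, chromosome 9, 44134469 to 44142727, plus strand). It had 8.08, 9.64 and 7.52 CPM in TGF-β1 libraries, against 17.8, 19.8 and 17.4 CPM in vehicle libraries (log2 fold change -1.13, no overlap). The TGF-β1 libraries overlapped EV libraries, at 7.34, 6.70 and 7.93 CPM, while vehicle overlapped the M12 libraries at 19.9, 23.8 and 18.8 CPM. An antisense gene, Gm10687, overlaps it and had 0.108 ± 0.0679 CPM in TGF-β1 and 0.219 ± 0.0861 in vehicle libraries.

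Cnst encodes consortin, which takes part in sending connexins from the trans-Golgi network to the plasma membrane (ENSMUSG00000038949.8, chromosome 1, 179546370 to 179627478, plus strand). It had 13.2, 12.2 and 13.7 CPM in TGF-β1 libraries, against 31.6, 27.7 and 24.7 CPM in vehicle libraries (log2 fold change -1.10). The groups did not overlap; the TGF-β1 libraries overlapped those of EV and M11, while every vehicle library stood above all other groups.

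Overexpression of ZBTB18 without the receptor construct, set against empty vector, moved 3 of the 10 genes (1 higher, 2 lower), beside 28.4% of all genes tested (14% higher, 14.5% lower). Inava and Rap1gap2 fell and Mcam rose. Inava had 3.52, 2.37 and 3.27 CPM in ZBTB18OE libraries, against 7.73, 8.99 and 9.14 CPM in EV libraries. The groups lay well apart, with a log2 fold change of -1.49 ± 0.27 (SE; edgeR quasi-likelihood test, adjusted p = 0.000321). Mcam had 14.1, 13.9 and 15.1 CPM in ZBTB18OE libraries, against 7.34, 6.70 and 7.93 CPM in EV libraries (0.97 ± 0.15, adjusted p = 3.4e-05 by edgeR). Both calls held under every alternative tried.

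Rap1gap2 had 0.232, 0.249 and 0.109 CPM in ZBTB18OE libraries, against 0.627, 0.574 and 0.449 CPM in EV libraries. It was low in all 6, on 30 and 88 reads, and the groups did not overlap (-1.51 ± 0.47, adjusted p = 0.0185 by edgeR). The call was lost without ZBTB18OE replicate 3 (-1.21, adjusted p = 0.0977) and without EV replicate 1 (-1.38, adjusted p = 0.0792). The other 7 genes did not pass. Zfp428 came closest, at 10.7 ± 1.54 CPM in ZBTB18OE and 15.03 ± 0.516 in EV libraries (-0.49 ± 0.22, adjusted p = 0.109 by edgeR). Tnnt2 stood at 2.95 ± 0.215 CPM in ZBTB18OE and 4.33 ± 1.90 in EV libraries (-0.55 ± 0.27, adjusted p = 0.136 by edgeR), and it passed without EV replicate 2 (-0.81, adjusted p = 0.028). Without the filter on low counts Zfp428, Tubb3 and Tnnt2 also passed as lower (adjusted p = 0.00636, 0.0043 and 0.0372 by edgeR). With the 6 libraries of the comparison alone Zfp428 and Tubb3 passed as lower and Cnst as higher (adjusted p = 0.00317, 0.0115 and 0.0287 by edgeR). The share of members called was close to that of all genes.

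Both vector-carrying groups differed from the parental line in most of the 10 genes, as did most of the genes tested. Set against parental cells, ZBTB18OE differed in 9 of 10 genes (5 higher, 4 lower) beside 61.7% of all genes (29.9% higher, 31.8% lower). EV differed in 7 of 10 (5 higher, 2 lower) beside 58% of all genes (28.9% higher, 29% lower). These comparisons share the parental libraries, and both counts of higher genes include Ctsw, which is limited as given below. Tnnt2 and Acsbg1 rose in both. Tnnt2 had 0.170, 0.0912 and 0.170 CPM in parental libraries, so its log2 fold change was 4.37 ± 0.41 in ZBTB18OE (adjusted p = 1.57e-08) and 4.92 ± 0.40 in EV (adjusted p = 8.39e-09 by edgeR). Acsbg1 was 5.49 ± 0.490 CPM in ZBTB18OE and 6.96 ± 1.91 CPM in EV libraries, against 0.875 ± 0.448 CPM in parental libraries (2.66 ± 0.34 and 3.01 ± 0.35, adjusted p = 2.13e-06 and 1e-06 by edgeR).

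Ptgds fell in both, at 0.195 ± 0.0486 CPM in ZBTB18OE and 0.312 ± 0.0885 CPM in EV, against parental libraries of 3.51, 1.73 and 0.511 CPM. The parental libraries spread widely, yet all lay above both groups (log2 fold changes -3.29 ± 0.56 and -2.63 ± 0.53, adjusted p = 5.38e-05 and 0.000369 by edgeR). Without parental replicate 1 they were -2.53 in ZBTB18OE and -1.87 in EV, still past the threshold. Tubb3 fell to 8.07 ± 1.16 CPM in ZBTB18OE and 11.2 ± 1.58 CPM in EV libraries, against 30.7, 19.2 and 15.9 CPM in parental libraries, where replicate 1 was the highest. Its log2 fold change was -1.44 ± 0.27 in ZBTB18OE (adjusted p = 0.000194) and -0.97 ± 0.27 in EV (adjusted p = 0.00543 by edgeR), and the EV call was lost without parental replicate 1 (-0.63, adjusted p = 0.0515). Cnst rose in both, with 17.98 ± 0.334 CPM in ZBTB18OE and 15.0 ± 1.35 CPM in EV, against 8.43 ± 1.83 CPM in parental libraries (1.09 ± 0.13 and 0.83 ± 0.13, adjusted p = 5.87e-07 and 2.92e-05 by edgeR).

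Mcam rose to 14.4 ± 0.616 CPM in ZBTB18OE, against 6.97 ± 1.04 CPM in parental cells (1.04 ± 0.15, adjusted p = 4.56e-06 by edgeR). In EV it stood at 7.32 ± 0.615 CPM (0.07 ± 0.15, adjusted p = 0.705 by edgeR), and the difference between ZBTB18OE and EV is the call given above. On the TPM scale Mcam was called higher in EV than in parental cells. Limma gave 0.43 on log2(TPM + 1) (adjusted p = 0.0212) and 0.53 on log2(TPM + 0.1) (adjusted p = 0.013). Inava lay on either side of the parental level of 5.41 ± 1.73 CPM: lower in ZBTB18OE (-0.83 ± 0.28, adjusted p = 0.0139) and higher in EV (0.67 ± 0.27, adjusted p = 0.0388 by edgeR). The lower call was lost without ZBTB18OE replicate 2 (-0.67, adjusted p = 0.0699) or parental replicate 3 (-0.64, adjusted p = 0.0703). The higher call was lost without EV replicate 2 or 3, or without parental replicate 1 or 2, with log2 fold changes between 0.45 and 0.74.

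Rap1gap2 was lower in ZBTB18OE than in parental libraries (0.425, 0.456 and 0.483 CPM; -1.21 ± 0.49, adjusted p = 0.0379 by edgeR), a call that was lost on leaving out ZBTB18OE replicate 1 or 3 or any 1 parental library, with log2 fold changes between -1.35 and -0.91. It did not pass in EV (0.29 ± 0.43, adjusted p = 0.572). Ctsw was called higher in both groups on 9 reads each against 0 in parental cells. It passed the filter on low counts only through the TGF-β1 libraries on which it was picked, so these calls are no result. With the 6 libraries of either comparison alone Ctsw was not tested. With a floor of 3 counts in place of the 0, the ratio was 2.22 in ZBTB18OE and 2.23 in EV. These ratios leave out the counting error of the 9 reads, so they are no lower bounds. Both calls were lost without parental replicate 2 (adjusted p = 0.0561 and 0.0626 by edgeR), and that in EV also without EV replicate 1 (adjusted p = 0.0799). Zfp428 did not pass in either group by the main test. In EV it was called higher without the filter on low counts (0.45, adjusted p = 0.00846 by edgeR). The same held with the 6 libraries of the comparison alone (0.44, adjusted p = 0.00581 by edgeR). Limma on log2(TPM + 1) and on log2(TPM + 0.1) also called it higher in EV (adjusted p = 0.00651 and 0.00661).

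**Figure D2:**
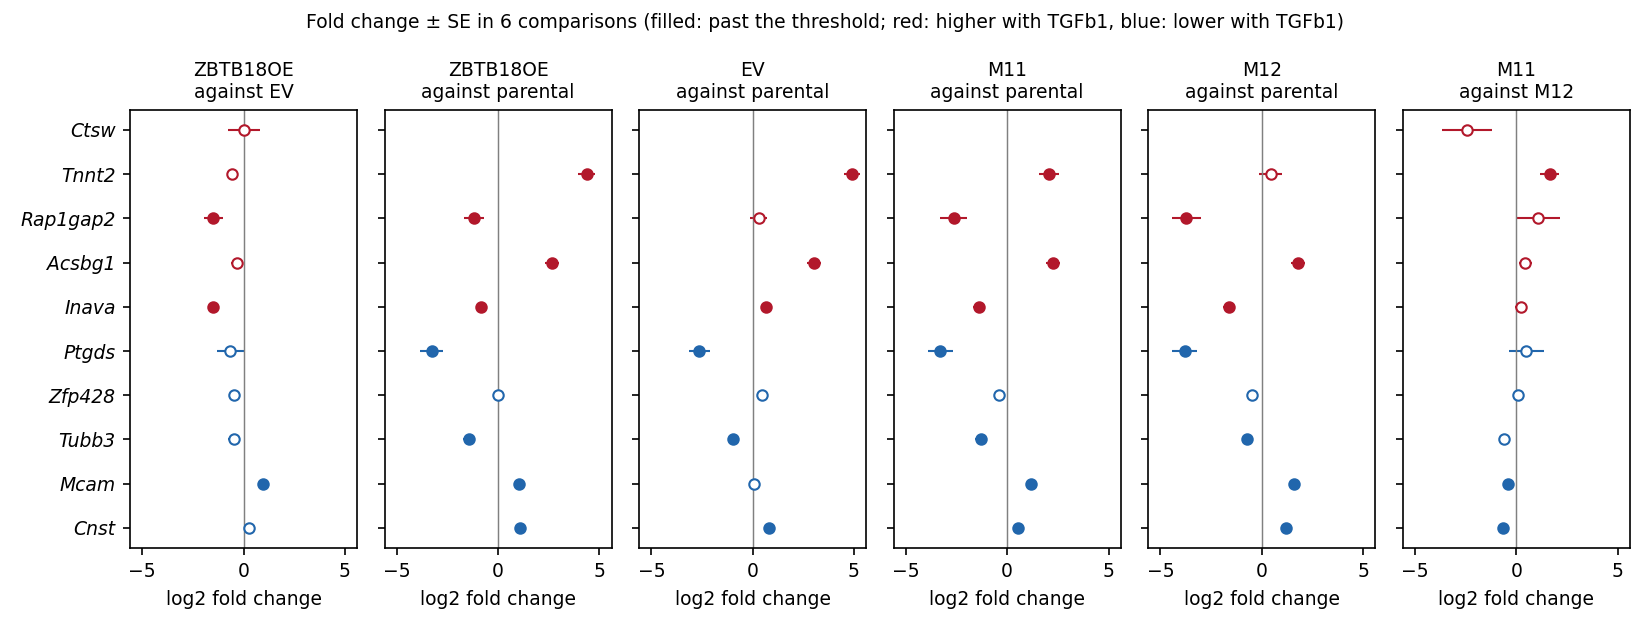
Log2 fold change (first group minus second) ± SE of the 10 genes in the 6 comparisons that share no library with the contrast used to pick them; filled points passed the threshold, red marks the 5 genes higher and blue the 5 genes lower with TGF-β1. Ctsw is not drawn against parental cells, which had 0 reads. ZBTB18OE against EV and M11 against M12 hold 3 filled points each, and the comparisons with the parental line hold more.

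The metastasis-derived lines, each set against parental cells, had more of the adhesion molecule Mcam, of Cnst and of Acsbg1, and less of Ptgds, Inava, Rap1gap2 and Tubb3. M11 differed in 8 of 10 genes (4 higher, 4 lower) beside 40.7% of all genes (20.8% higher, 20% lower), and M12 in 8 of 10 (4 higher, 4 lower) beside 50.1% of all genes (24.9% higher, 25.2% lower). They share the parental libraries, so their values are given side by side. Tnnt2 passed in M11 (2.08 ± 0.49, adjusted p = 0.00189 by edgeR) and not in M12 (0.44 ± 0.58, adjusted p = 0.561). Ctsw passed in M12 and not in M11, where it had 1 read. It is among the 8 genes counted in M12, although it passed the filter on low counts only through the TGF-β1 libraries.

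Mcam, the adhesion molecule, had 11.8, 17.6 and 17.6 CPM in M11 and 19.9, 23.8 and 18.8 CPM in M12, against 7.59, 7.55 and 5.77 CPM in parental libraries. Every metastasis-derived library exceeded every parental one, with log2 fold changes of 1.16 ± 0.15 in M11 and 1.58 ± 0.15 in M12 (adjusted p = 2.66e-06 and 2.26e-08 by edgeR). Cnst had 11.9, 11.2 and 13.7 CPM in M11 and 20.5, 19.8 and 16.8 CPM in M12, against 7.05, 7.73 and 10.5 CPM in parental libraries, again without overlap (0.54 ± 0.14 and 1.18 ± 0.13, adjusted p = 0.00298 and 2.84e-07 by edgeR). Acsbg1 averaged 4.15 ± 1.55 CPM in M11 and 3.03 ± 0.647 CPM in M12, against 0.875 ± 0.448 CPM in parental cells (2.25 ± 0.35 and 1.80 ± 0.35, adjusted p = 3.84e-05 and 0.000293 by edgeR).

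Among the genes that fell, Ptgds had 0.0668, 0.251 and 0.326 CPM in M11 and 0.178, 0.172 and 0.0662 CPM in M12, all below the parental libraries (-3.29 ± 0.61 and -3.79 ± 0.61, adjusted p = 0.000249 and 4.4e-05 by edgeR). Inava had 1.89, 1.57 and 2.89 CPM in M11 and 1.28, 1.14 and 2.87 CPM in M12, against 3.46, 6.04 and 6.73 CPM in parental libraries, again below in every library (-1.38 ± 0.30 and -1.61 ± 0.29, adjusted p = 0.000862 and 0.000125 by edgeR). Rap1gap2 was very low, with 7 reads in M11 and 4 in M12 against 52 in parental cells (-2.64 ± 0.65 and -3.73 ± 0.71, adjusted p = 0.00276 and 0.000178 by edgeR). Of these reads M11 replicate 3 held 6 and M12 replicate 3 held 3. These calls of Ptgds, Inava and Rap1gap2 stayed past the threshold when any 1 library was left out, but the size of some moved. Rap1gap2 stood at -4.88 in M11 without M11 replicate 3 and at -4.94 in M12 without M12 replicate 3. Its smallest values were -2.04 in M11, without M11 replicate 1, and -3.11 in M12, without M12 replicate 2. Ptgds stood at -2.56 in M11 and -3.06 in M12 without parental replicate 1. Limma on log2(TPM + 1) called Rap1gap2 in neither line (adjusted p = 0.575 in M11 and 0.263 in M12).

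Tubb3 had 8.35, 8.52 and 9.81 CPM in M11 and 8.82, 20.8 and 10.5 CPM in M12, where replicate 2 stood apart and overlapped the parental libraries. The fall was -1.30 ± 0.28 in M11 (adjusted p = 0.000992) and -0.71 ± 0.27 in M12 (adjusted p = 0.036 by edgeR), and the M12 call was lost without parental replicate 1 (-0.39, adjusted p = 0.236), M12 replicate 1 (-0.48, adjusted p = 0.157) or M12 replicate 3 (-0.57, adjusted p = 0.123). Zfp428 did not pass in either line by the main test (adjusted p = 0.153 in M11 and 0.0737 in M12 by edgeR). Without the filter on low counts it was called lower in both (adjusted p = 0.0182 in M11 and 0.00234 in M12 by edgeR). In M12 its replicate 2 again stood high at 12.4 CPM, and without it Zfp428 was lower in M12 (-1.04, adjusted p = 1.07e-05 by edgeR). Ctsw was called higher in M12 on 8 reads against 0 in parental cells, with M12 replicate 3 also at 0. As it passed the filter on low counts only through TGF-β1 libraries, this call is no result either. The ratio was 2.43 against the same floor, again without the counting error of the 8 reads. That call was lost without M12 replicate 2 (adjusted p = 0.0841) or parental replicate 2 (adjusted p = 0.0592).

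Set directly against each other, M11 and M12 differed in 3 of the 10 genes (1 higher, 2 lower in M11), beside 35.5% of all genes (17.7% higher, 17.8% lower). Tnnt2 was higher in M11, with 0.423, 0.470 and 1.02 CPM, against 0.178, 0.150 and 0.243 CPM in M12. The groups did not overlap, and M11 replicate 3 was the highest (1.65 ± 0.46, adjusted p = 0.00729 by edgeR). Without M11 replicate 3 the log2 fold change was 1.21 (adjusted p = 0.0549). Cnst was lower in M11 in every library (-0.64 ± 0.13, adjusted p = 0.000693 by edgeR), and so was Mcam (-0.42 ± 0.15, adjusted p = 0.0287), whose call was lost without M11 replicate 1 (-0.24, adjusted p = 0.202) or M12 replicate 2 (-0.31, adjusted p = 0.135). Leaving out an M12 library also added calls: Tubb3 without replicate 1 (-0.82), Zfp428 without replicate 2 (0.62) and Inava without replicate 3 (0.80), each log2 fold change being M11 minus M12. Ctsw was also called without M12 replicate 3, on 1 read in M11 and 8 in M12 (adjusted p = 0.0313 by edgeR). Without the filter on low counts Tubb3 was called lower in M11 than in M12 (-0.59, adjusted p = 0.000188 by edgeR).

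The families around each member were read in the same contrast, where 1.91% of all genes tested were called; shares near that are no result about the families. Of 7 tested cathepsins other than Ctsw, 0 passed by edgeR in TGF-β1 against vehicle, with 1 at an unadjusted p under 0.05 and 1 called by DESeq2. The same counts were 0, 2 and 1 of 11 for acyl-CoA synthetases and fatty acid transporters, and 0, 1 and 0 of 12 for cytohesins and other partners of INAVA. For prostaglandin enzymes and receptors they were 0, 1 and 1 of 14, and for other tubulins 0, 3 and 0 of 14. For immunoglobulin-like adhesion molecules and their ligands they were 0, 1 and 0 of 18, and for connexins and their partners 0, 1 and 0 of 8. Limma on log2(TPM + 1) called 0 in each of these 7 families, whose median log2 fold changes lay between -0.06 and 0.16, beside a median of all genes near 0.

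Genes passed in 3 lists. Among 7 troponins and tropomyosins, Tnni1, the slow skeletal troponin I, rose to 0.847 ± 0.0301 CPM in TGF-β1 libraries, against 0.214 ± 0.115 in vehicle libraries (2.04 ± 0.44, adjusted p = 0.0164 by edgeR). The call of Tnni1 was lost without TGF-β1 replicate 1 or 3 and without vehicle replicate 1 or 2. Among 24 regulators and effectors of Rap1, Rap2a, a relative of Rap1, was called higher by a small step, at 69.4 ± 1.17 CPM in TGF-β1 and 56.8 ± 3.94 in vehicle libraries (0.29 ± 0.07, adjusted p = 0.0442 by edgeR). In this list 0 genes were called higher on leaving out any 1 library of the contrast, without the filter on low counts, or by limma on log2(TPM + 1) or log2(TPM + 0.1), while DESeq2 also called Rap2a. Of 25 known TGF-β target genes 6 rose, with a median log2 fold change over the list of 0.21, where 1.26% of all genes were called higher; DESeq2 called 7 of the list and limma on log2(TPM + 1) called 3. They included Skil, a SMAD co-repressor, at 61.1 ± 6.77 CPM in TGF-β1 and 24.9 ± 4.99 in vehicle libraries (1.30 ± 0.13, adjusted p = 3.66e-06 by edgeR). Ltbp3, which binds latent TGF-β, rose by 0.62 ± 0.10 (adjusted p = 0.00164) and Bhlhe40, a transcriptional repressor, by 0.51 ± 0.08 (adjusted p = 0.00181); Ski, Ccn2 and Ldlrad4 were the others.

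**Figure D3:**
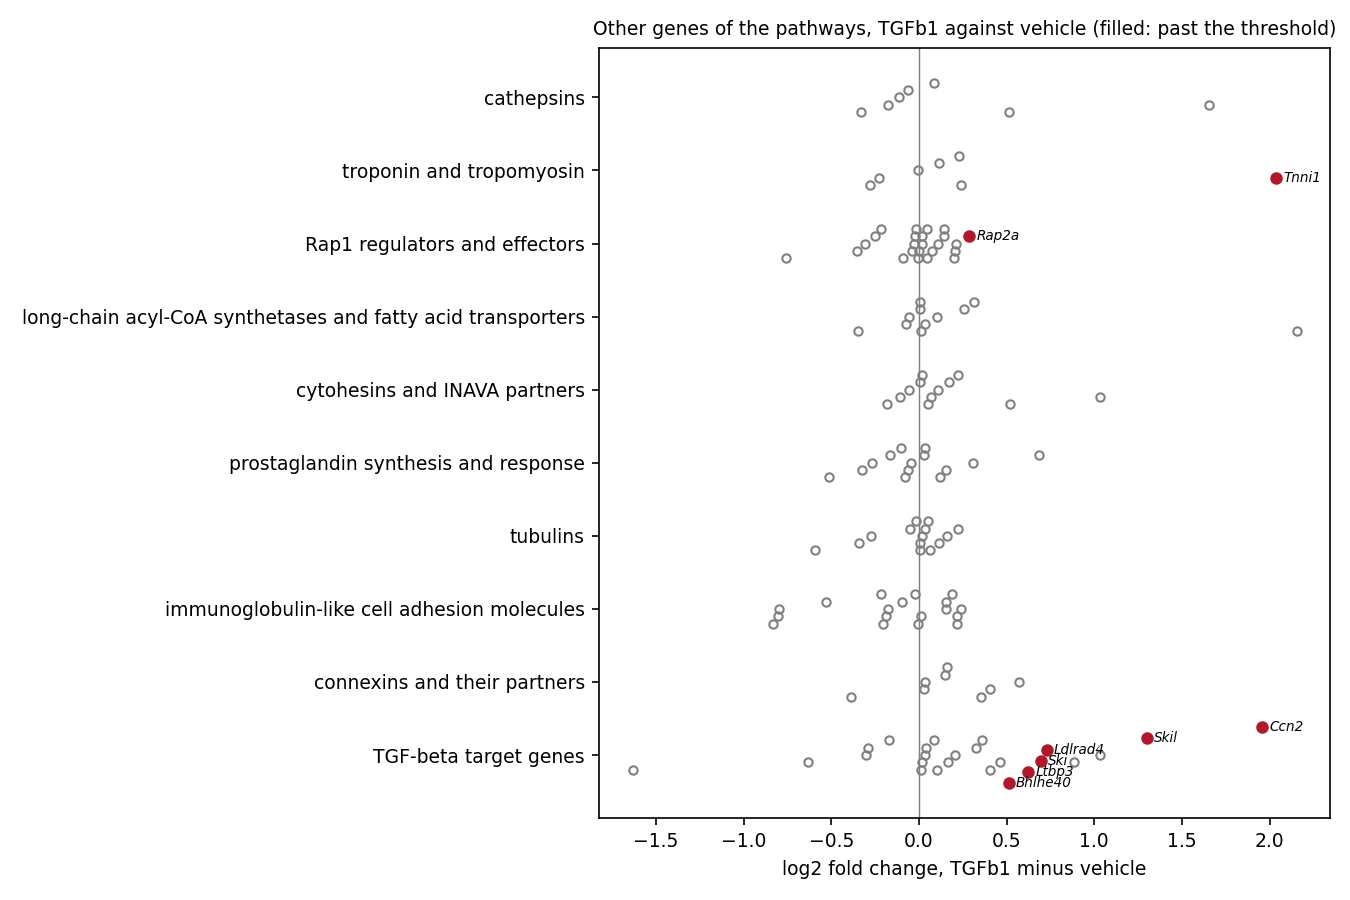
Log2 fold change, TGF-β1 minus vehicle, of the other genes of each family and of known TGF-β target genes; each point is a gene, and filled, named points passed the threshold. Filled points are Tnni1, Rap2a and the 6 TGF-β target genes, all above 0.

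In ZBTB18OE against EV, genes of every one of these families passed, beside 28.4% of all genes (14% higher, 14.5% lower). Of the 25 TGF-β target genes 14 fell, with a median log2 fold change over the list of -0.57. Zeb1, a mesenchymal transcription factor, fell by 0.64 on the log2 scale (adjusted p = 3.01e-06 by edgeR) and Skil by 1.26 (adjusted p = 1.57e-07 by edgeR). Around Tubb3, 1 tubulin rose and 6 fell of 14, among them Tubb2a at 18.7 ± 3.43 CPM in ZBTB18OE and 47.5 ± 3.10 in EV libraries (-1.34 ± 0.14, adjusted p = 2.42e-07 by edgeR). Around Cnst, 1 of 8 connexins and partners rose and 5 fell, including Gja1, the main connexin of many tissues, at 129 ± 13.4 CPM in ZBTB18OE and 261 ± 21.3 in EV libraries (-1.01 ± 0.08, adjusted p = 8.05e-09).

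Around Acsbg1, 5 of 11 fatty acid activating enzymes and transporters rose, led by Acsl1 (0.92 ± 0.09, adjusted p = 5.38e-08 by edgeR). Around Ptgds, 3 of 14 prostaglandin genes rose and 3 fell: Ptgs1, a cyclooxygenase, stood at 8.65 ± 0.831 CPM in ZBTB18OE and 2.23 ± 0.534 in EV libraries (1.94 ± 0.16, adjusted p = 1.19e-08), and the prostaglandin transporter Slco2a1 at 5.52 ± 0.0691 CPM in ZBTB18OE and 14.6 ± 1.82 in EV libraries (-1.40 ± 0.18, adjusted p = 5.02e-06). Around Rap1gap2, 3 of 24 Rap regulators rose and 5 fell, with the related Rap1gap higher (0.63 ± 0.12, adjusted p = 0.000368) and Rapgef3, a cAMP-activated exchange factor for Rap1, lower (-1.43 ± 0.15, adjusted p = 2.19e-07 by edgeR). Around Inava, 1 of 12 partners rose, namely Cyth4 (1.12 ± 0.09, adjusted p = 3.13e-09), and 6 fell. Around Mcam 6 of 18 fell, L1cam most clearly (-2.51 ± 0.20, adjusted p = 1.44e-08); around Ctsw 3 of 7 fell, Ctsh to 0.625 ± 0.116 CPM, against 8.25 ± 0.959 in EV libraries (adjusted p = 6.4e-09); and around Tnnt2 4 of 7 fell, Tnnt1 by 1.90 on the log2 scale (adjusted p = 2.87e-05 by edgeR).

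Several of the 10 genes mark other cell types, so the defining genes of those types were read in the same libraries. Of 10 cytotoxic lymphocyte genes, 8 had 0 reads in TGF-β1 and in vehicle libraries, Cd3e, Cd8a, Gzmb and Nkg7 among them, and the list summed to at most 0.03 TPM in TGF-β1 and 0.02 TPM in vehicle libraries. The 10 cardiac muscle genes summed to 2.62 to 3.25 TPM in TGF-β1 and 2.89 to 3.28 TPM in vehicle libraries, nearly all of it Tnni3, with Actc1 and Nkx2-5 at 0 reads in both. The 13 neuron genes summed to 11.6 to 12.9 TPM in TGF-β1 and 10.2 to 10.6 TPM in vehicle libraries, mostly Syn1, with Dcx, Map2 and Stmn2 at 0 in both. The 10 genes of endothelium and pericytes summed to 13.6 to 18.7 TPM in TGF-β1 and 13.8 to 18.1 TPM in vehicle libraries. Most of this was Des, at 9.56 TPM in TGF-β1 and 9.15 TPM in vehicle libraries, and Pdgfrb, at 5.11 and 5.77 TPM. Emcn had 0 reads in both groups, and Cdh5, Kdr, Tek and Rgs5 stood at or near 0. The 6 astrocyte genes summed to 0.86 to 1.79 TPM in TGF-β1 and 1.30 to 2.21 TPM in vehicle libraries. Of the 15 genes of these 5 lists that could be tested in TGF-β1 against vehicle, 0 passed by edgeR, 0 by DESeq2 and 0 by limma, with 1, Syn1, at an unadjusted p under 0.05. The labelled cancer type was checked as well. Of 13 mammary epithelial genes Krt8 was high at 271 TPM in TGF-β1 and 237 TPM in vehicle libraries. Cdh1 stood near 0, and Cldn3 and Cldn7 had 0 reads. Of 10 smooth muscle and fibroblast genes Vim reached 4490 TPM in TGF-β1 and 4560 TPM in vehicle libraries. Acta2 stood at 33.3 TPM in TGF-β1 and 44.2 TPM in vehicle libraries, and Pdgfra at 28.4 TPM in TGF-β1 and 30 TPM in vehicle libraries. Tagln was low, at 0.327 TPM in TGF-β1 and 0.237 TPM in vehicle libraries. Cnn1, Col1a2 and Myh11 stood near 0, and Dcn had 0 reads in both groups. Of the 6 tested genes of each of these lists, 0 epithelial genes passed in TGF-β1 against vehicle, and of the smooth muscle and fibroblast genes 1 did: Col1a1, a collagen chain, was called higher, at 11.5 TPM in TGF-β1 and 2.85 TPM in vehicle libraries. The part of such cells in the members' values was not tested. In bulk RNA, fewer cells with a transcript and less transcript per cell cannot be told apart.

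Tnnt2 and Inava lie 361 kb apart on chromosome 1, and some genes on both sides of Tnnt2 were called higher with TGF-β1 too. The nearest tested genes on either side of Inava, Kif21b and Camsap2, did not pass. This stretch was picked out after its values were seen. Of 20 other genes tested within 500 kb of either, 6 were called higher in TGF-β1 against vehicle by edgeR, beside 1.26% higher among all genes: Csrp1, Phlda3, Tnni1, Lad1, Pkp1 and Cacna1s. DESeq2 called 4 of the 20 higher, with Lad1, Pkp1 and Cacna1s not among them, and limma on log2(TPM + 1) called 2, Tnni1 and Lad1. A filter of 1 CPM in at least 3 libraries removed the calls of Tnni1, Lad1, Pkp1 and Cacna1s. Around the other 8 genes the same window held 5 to 58 tested genes and at most 1 call in either direction.

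Lad1, whose product ladinin sits in basement membranes, ends 3012 bases below the start of Tnnt2. It had 0.575, 0.481 and 0.375 CPM in TGF-β1 libraries, against 0.122, 0.0932 and 0.0922 in vehicle libraries (2.16 ± 0.48, adjusted p = 0.023 by edgeR). Pkp1, a desmosomal plakophilin, lies on the other side of Tnnt2 and had 0.204, 0.298 and 0.205 CPM in TGF-β1 libraries, against 1 read in each vehicle library (adjusted p = 0.0121). Cacna1s, a calcium channel subunit of skeletal muscle, had 0.319, 0.550 and 0.256 CPM in TGF-β1 libraries, against 0.0665, 0.0932 and 0.0692 in vehicle libraries (2.24 ± 0.52, adjusted p = 0.0307 by edgeR). These levels are low. For all 6 genes the groups did not overlap, as was so for 27.6% of all genes. The 6 were picked by their call in this same contrast, so the lack of overlap adds no support to it.

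Csrp1, a LIM protein of the actin cytoskeleton, was well expressed, with 92.1, 94.6 and 94.6 CPM in TGF-β1 libraries, against 54.3, 57.8 and 60.6 in vehicle libraries (0.71 ± 0.16, adjusted p = 0.028 by edgeR). Phlda3, a p53 target that restrains Akt, had 37.3, 30.9 and 28.5 CPM in TGF-β1 libraries, against 21.5, 22.6 and 22.9 in vehicle libraries (0.53 ± 0.13, adjusted p = 0.0427). Between Tnnt2 and Inava the well-expressed Tmem9 and Kif21b did not pass (0.28 ± 0.07 and 0.29 ± 0.19, adjusted p = 0.0571 and 0.607 by edgeR). On leaving out 1 library, the number of these genes called higher fell to between 0 and 2 of 20, and it was 0 without vehicle replicate 1 and without vehicle replicate 2; the count over all genes fell as well, to between 71 and 183.

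The 6 called genes of this stretch can also be read in libraries outside that contrast. In EV against parental cells 5 of those 6 genes were higher, as was Tnnt2, where 28.9% of all genes were. Csrp1 stood at 127 CPM in EV and 56.5 in parental cells, and Phlda3 at 53.2 CPM in EV and 24.1 in parental cells. Tnni1 stood at 0.858 CPM in EV and 0.240 in parental cells, Pkp1 at 0.262 CPM in EV and 0.0454 in parental cells, and Lad1 at 0.208 CPM in EV, with 0 reads in parental cells. ZBTB18OE, set against the same parental libraries, was higher in the same 5 genes, where 29.9% of all genes were. M11 was higher than parental cells in Phlda3 and Lad1 of the 6, where 20.8% of all genes were, and M12 in Lad1, where 24.9% were. These calls of Lad1 rest on few reads: 6, 0 and 2 in the M11 libraries and 4, 2 and 4 in the M12 libraries. In M12 the others did not pass: Phlda3 stood at 23.2 CPM in M12 and 24.1 in parental cells, Tnni1 at 0.141 CPM in M12 and 0.240 in parental cells, and Pkp1 at 0.00990 CPM in M12 and 0.0454 in parental cells. Csrp1 stood at 67.7 CPM in M12 and 56.5 in parental cells, and Cacna1s had 0 reads in M12. In ZBTB18OE against EV only Csrp1 of the 6 passed, at 80.0 CPM in ZBTB18OE and 127 in EV libraries (-0.67, adjusted p = 0.00384 by edgeR). Differences from parental cells were not limited to the 6. Ipo9, Nav1, Camsap2, Kif14 and Zfp281, not called in TGF-β1 against vehicle, were higher than parental in EV, ZBTB18OE, M11 and M12 by edgeR. Lower than parental were Gm19705 in EV and ZBTB18OE, Gm15850 and Platr22 in EV, and Tmem9 in M12. Further genes of the stretch passed in some of these groups.

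**Figure D4:**
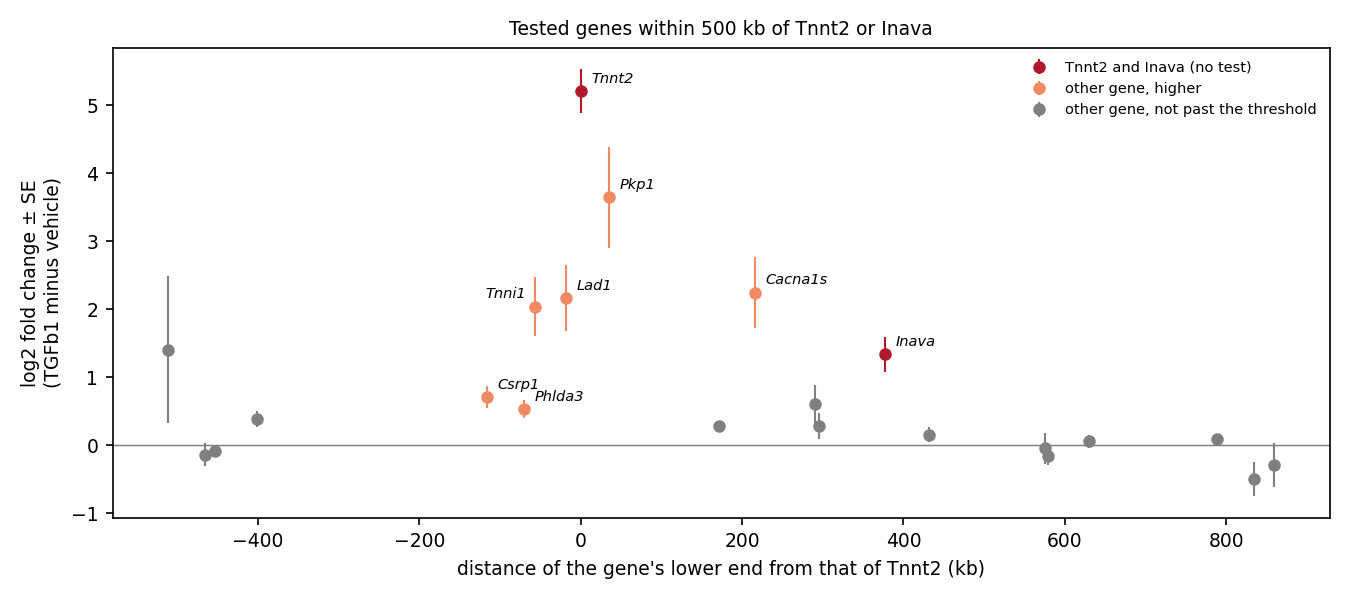
Log2 fold change, TGF-β1 minus vehicle, ± SE of all tested genes within 500 kb of Tnnt2 or Inava, against distance in kb from the lower end of Tnnt2. Orange genes were called higher and cluster on both sides of Tnnt2; grey genes, which did not pass, include all those beyond Inava.

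Of 23 nearest or overlapping tested neighbours of the 10 genes, 2 were higher with TGF-β1 (Lad1 and Pkp1) by edgeR. Idh3a lies 216 bases from Acsbg1 and stood at 116 ± 3.58 CPM in TGF-β1 and 104 ± 2.83 in vehicle libraries. Tfb2m lies 103 bases from Cnst and stood at 42.5 ± 0.391 CPM in TGF-β1 and 47.6 ± 2.63 in vehicle libraries. Cbl lies 249 bases from Mcam and stood at 184 ± 6.77 CPM in TGF-β1 and 176 ± 5.87 in vehicle libraries. None of these 3 passed the test.

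Promoter windows of 250 bases before the RefSeq start (GRCm38.p6, the assembly of mm10) were matched by symbol for 9 of the 10 genes, 13 windows in all. Printed here are those of Tnnt2, the member with the largest well-measured rise, Acsbg1, another that rose, Ptgds, the member that fell most, and Zfp428. They lie at chr1:135836084-135836333 (plus strand), chr9:54661886-54662135 (minus strand), chr2:25469750-25469999 (minus strand) and chr7:24506837-24507086 (plus strand), and each is written 5′ to 3′ on the gene's strand. Capitals mark the SMAD box CAGAC and the AP-1 motif TGANTCA on either strand; the Tnnt2 window holds neither.
Tnnt2: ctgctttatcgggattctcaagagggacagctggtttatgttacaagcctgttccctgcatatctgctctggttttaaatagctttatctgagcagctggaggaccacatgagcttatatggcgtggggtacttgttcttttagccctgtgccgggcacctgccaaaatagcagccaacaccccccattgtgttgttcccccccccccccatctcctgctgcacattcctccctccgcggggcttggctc
Acsbg1: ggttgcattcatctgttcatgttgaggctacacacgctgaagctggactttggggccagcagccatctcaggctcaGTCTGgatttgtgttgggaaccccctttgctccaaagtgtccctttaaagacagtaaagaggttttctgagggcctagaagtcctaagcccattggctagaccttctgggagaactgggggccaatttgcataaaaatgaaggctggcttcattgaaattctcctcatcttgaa
Ptgds: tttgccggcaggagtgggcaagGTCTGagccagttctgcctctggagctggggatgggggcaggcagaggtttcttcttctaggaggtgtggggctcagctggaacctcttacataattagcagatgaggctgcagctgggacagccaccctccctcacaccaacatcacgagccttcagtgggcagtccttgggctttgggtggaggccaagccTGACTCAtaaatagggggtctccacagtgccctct
Zfp428: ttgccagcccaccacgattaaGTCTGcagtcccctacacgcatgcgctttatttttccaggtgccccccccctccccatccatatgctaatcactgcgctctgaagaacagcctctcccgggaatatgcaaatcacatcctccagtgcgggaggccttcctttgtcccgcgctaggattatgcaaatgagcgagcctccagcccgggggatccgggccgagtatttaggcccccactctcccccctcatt

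A SMAD box lay in 5 of the 13 windows, where 42.2% of 32851 windows of the same length held one. The AP-1 motif lay in 1 window, that of Ptgds, close to its start, and in 6.75% of all windows. The SMAD element GGCGC lay in 6 of 13 windows and in 32% of all. The ZBTB18 core ACATCTG lay in 0 of 13 windows and in 3.71% of all, and the E-box CANNTG, which overlaps it, in 9 of 13 and 66.2%. A match or its lack in these windows says nothing of binding.

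Over the 7 group means on the log2 CPM scale, the genes most like each member are given as a description. They were taken from 10121 genes with at least 5 CPM in some group. The 7 points share libraries and scaling, and they include the TGF-β1 and vehicle means on which the members were picked. The best of 10121 genes over 7 points can have a high r by selection alone. Rap1gap2 was most like Tfr2, a transferrin receptor (Pearson r = 0.98, Spearman rho = 0.893), and Dusp8, a MAP kinase phosphatase (0.979 and 0.964). Inava was most like Erfe, which encodes erythroferrone (r = 0.979, rho = 1), and also Dusp8 (0.976 and 0.929). Acsbg1 was most like Pld2 and Pgd, Ptgds like Nuak2 and Nemp1, and Tnnt2 like Stt3a and Gapvd1, all with r between 0.945 and 0.978. For Ctsw the nearest were Zkscan17 and Ankrd40, for Zfp428 Cnpy4 and Timm29, for Tubb3 Arl14ep and Crybg2, for Mcam Pnkd and Cluap1, and for Cnst Fam72a and Psmd5, with r between 0.912 and 0.968.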

How the data were processed

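RNA was measured in 21 polyA-enriched, stranded libraries. Per the submitters' processing notes, RSEM and STAR (2.7.1a), GATK (4.1.2.0) and Trim Galore were used with build mm10; the annotation release, the order of steps and the strand setting are not given in the sources used here. The authors deposited RSEM expected counts per gene, not normalised, and TPM, which correct for length and give every library one sum. The deposited FPKM were not used here. Counts were rounded (1.28% were not whole), 92 spike-in entries with 0 reads were left out, and 0 sample columns were left unmapped.

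Genes were chosen, and gene lists and tests written, with earlier results of these data known. Groups and replicate numbers came from the titles. R 4.3.3 with edgeR 4.0.16 was used on all 21 libraries with 1 mean per group: the package's low-count filter by group (15432 of 55573 genes), TMM, a robust quasi-likelihood F-test, two-sided, Benjamini-Hochberg over all genes, threshold 0.05. CPM are library-scaled counts after TMM; log2 fold changes are the first group minus the second, with SE taken as their size over the root of F. Named beside the members were up to 3 list genes per direction with the smallest adjusted p, the nearest tested neighbours, the 2 most similar genes, and the nearest genes not taken; some genes of the region around Tnnt2 were named after their values were seen. The fit was tested on simulated data. Positions are from GENCODE vM21, in which 99.83% of gene identifiers were found without their version (99.29% with it); Rap1gap2 has another version there. Alternatives were DESeq2 1.42.0 as test or for size factors, other filters, limma 3.58.1 on log2(TPM + 1) and log2(TPM + 0.1), the 6 libraries of a comparison alone, each library left out, and a replicate block. Replicate numbers paired the libraries by the correlation of their deviations in TGF-β1 against vehicle (0.131 to 0.311 between same-numbered libraries) and in M11 against M12 (0.142 to 0.261), and not in the other 5 comparisons. No pair of libraries held identical values. Counting intervals cover counting error only, as the libraries carry no molecular identifiers. Floors cover only the counting error of the group with 0 reads.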

Additional observations from a re-analysis of the deposited data

Results flagged for a closer look

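The effects of the metastasis-derived lines against the parental line differed between M11 and M12 in 3 of the 10 genes, by the direct test of M11 against M12 in edgeR. The log2 difference, M11 minus M12, was 1.65 for Tnnt2, the cardiac troponin T (higher in M11 in 3 of 3 libraries, adjusted p = 0.00729). It was -0.64 for Cnst, the connexin-sorting protein consortin (lower in M11 in 3 of 3 libraries, adjusted p = 0.000693). It was -0.42 for Mcam, the adhesion molecule CD146 (lower in M11 in 3 of 3 libraries, adjusted p = 0.0287). The share of genes called in the same comparison was 35.5%, so the count of 3 of 10 is no result about the members. The call of Tnnt2 was lost without M11 replicate 3. That of Mcam was lost without M11 replicate 1, without M12 replicate 2, and with the 6 libraries of the comparison alone.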

How the results depend on the processing

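Of 38 calls of the 10 genes in the 6 tested comparisons, 25 held under every alternative, and no call changed direction. The 38 include the calls of Ctsw, which passed the low-count filter only through its TGF-β1 libraries. Those calls could not be tried with the 6 libraries of a comparison alone. The replicate block kept all 38 calls and added none, with 3 genes called in M11 against M12 and 411 instead of 295 genes over the table in TGF-β1 against vehicle. Without the low-count filter 6 instead of 3 of the 10 genes passed in ZBTB18OE against EV, and 633 genes in TGF-β1 against vehicle. With the 6 libraries of a comparison alone 6 of 10 passed in ZBTB18OE against EV; over all genes the counts were 4015 in M11 and 5113 in M12 against parental (6288 and 7737 with all libraries), 3497 in M11 against M12 (5474) and 1349 in TGF-β1 against vehicle. DESeq2 called 594 genes in TGF-β1 against vehicle, and limma 112 on log2(TPM + 1) and 81 on log2(TPM + 0.1). Limma on log2(TPM + 1) called 5 instead of 8 of the 10 genes in M12 against parental. The calls lost on the TPM scale were of Rap1gap2, Ctsw, Inava and Tubb3. Those gained were of Zfp428 and Mcam, both higher in EV against parental. The cause of these shifts was not tested.

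With 1 library left out, the number of the 10 genes called lay between 2 and 4 in ZBTB18OE against EV, 7 and 8 in ZBTB18OE, 5 and 7 in EV and 7 and 8 in M12 against parental, and 2 and 5 in M11 against M12; it was 8 throughout in M11 against parental. Over all genes the range in TGF-β1 against vehicle was 71 to 183. Outside the TGF-β1 group Ctsw had at most 9 reads in a group of 3 libraries.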
